A study of Mus musculus with 20 samples.

Results

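Omp, Rtp1, Rtp2, Reep1, Stoml3, Slc17a6 and Umodl1 are genes of mature olfactory sensory neurons, some of them chaperones that carry odorant receptors to the cell surface. They were chosen by name and were each represented by 1 probe set, so that 7 of 22206 probe sets for genes are described here, of which 19572 carried 1 gene symbol. Signals came from 20 Affymetrix Clariom S arrays of cells sorted from the olfactory mucosa of S100a5-tauGFP mice, which express a green fluorescent protein (GFP) fused to tau under control of S100a5, a gene whose transcription follows the activity of these neurons. The 4 groups were GFP+ cells of odor pools, GFP- cells of odor pools, GFP+ cells of vehicle pools and GFP- cells of vehicle pools, with 5 arrays each. A pool held the mucosa of 3 mice of 7 to 12 weeks and gave both of its fractions, so 10 pools stood for 30 mice of both sexes, all with the reporter. All mice spent 40 h in clean air chambers at 3.1 L/min. From 26 h on, those of odor pools received pulses of 10 s every 20 min with what the sample labels call an artificial cigarette smoke odor (the series' design text names bourgeonal instead), and those of vehicle pools received filtered air. The protein marks cells by their recent S100a5 transcription, and neither fraction is a pure cell type. Replicate numbers are pools, and the number of arrays limits the precision.

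Mature sensory neurons carry odorant receptors on cilia and signal through cyclic AMP. Odorant receptors are retained in the endoplasmic reticulum unless accessory proteins help them to the membrane. The receptor-transporting proteins encoded by Rtp1 and Rtp2 do this in the neurons, and the receptor expression-enhancing protein encoded by Reep1 does so in cultured cells and belongs to a family that shapes the endoplasmic reticulum. Stoml3 encodes a stomatin-like membrane protein of olfactory cilia. Omp encodes the olfactory marker protein, a cytosolic protein by which mature sensory neurons are recognised. Slc17a6 encodes the vesicular glutamate transporter VGLUT2, which loads synaptic vesicles with the transmitter that these neurons release in the olfactory bulb. Umodl1 encodes a uromodulin-like protein.

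None of the 7 genes passed the test between GFP+ and GFP- cells, in odor pools or in vehicle pools, although the estimate was positive (higher in GFP+ cells) for all 7 in both. Estimates ran from 0.10 to 0.85 log2 units in odor pools and from 0.12 to 0.88 in vehicle pools. Odor exposure moved none of them past the threshold in either fraction. Stoml3 lay within 0.0235 log2 units of the brightest probe set of every array, and Omp within 0.610. The largest differences of the other genes came from pools in which at least 1 array had several probe sets sharing its highest value.

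Promoter windows from RefSeq (GRCm38.p6, 250 bases before to 50 after the start) matched 5 of the 7 genes, all but Omp and Rtp1, with 2 starts for Slc17a6 and so 6 windows. The 4 shown belong to a ciliary protein, a chaperone, a transporter and Umodl1, whose signals varied together over the 16 arrays of replicates 1 to 4. On the 10 of these arrays where no probe sets shared the highest value, Pearson's r ran from 0.45 (Stoml3 and Slc17a6) to 0.91 (Stoml3 and Umodl1). Over the 16, an r of at least 0.8 was reached by 14.1% to 15.9% of 19498 genes with each of the 4. On both strands 3 motifs were searched, the palindromic Ebf motif, named for the factors that bind it, and TAATTA and TAATGA, bound by homeodomain factors. The searched motifs do not overlap each other in these windows. Each window runs 5′ to 3′ on the gene's strand, and capitals mark a motif.
Stoml3, chr3:53488457-53488756, plus strand: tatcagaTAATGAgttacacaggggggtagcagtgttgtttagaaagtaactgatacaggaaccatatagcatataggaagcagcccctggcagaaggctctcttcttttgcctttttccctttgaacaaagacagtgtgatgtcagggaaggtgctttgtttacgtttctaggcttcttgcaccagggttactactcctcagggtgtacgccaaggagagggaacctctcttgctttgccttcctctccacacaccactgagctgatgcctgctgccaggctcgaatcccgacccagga
Umodl1, chr17:30954433-30954732, plus strand: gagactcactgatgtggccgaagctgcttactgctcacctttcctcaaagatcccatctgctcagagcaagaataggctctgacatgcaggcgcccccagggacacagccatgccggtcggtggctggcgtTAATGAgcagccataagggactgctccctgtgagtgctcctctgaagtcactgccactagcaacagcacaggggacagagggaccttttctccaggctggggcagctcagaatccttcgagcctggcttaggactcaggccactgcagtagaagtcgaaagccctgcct
Slc17a6, second start, chr7:51624387-51624686, plus strand: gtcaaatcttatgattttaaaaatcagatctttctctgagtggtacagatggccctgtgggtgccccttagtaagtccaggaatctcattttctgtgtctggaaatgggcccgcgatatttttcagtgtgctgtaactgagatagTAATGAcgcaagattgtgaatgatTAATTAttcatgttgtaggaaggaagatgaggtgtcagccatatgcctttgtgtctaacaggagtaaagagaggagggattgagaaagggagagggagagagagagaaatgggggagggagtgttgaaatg
Rtp2, chr16:23930745-23931044, minus strand: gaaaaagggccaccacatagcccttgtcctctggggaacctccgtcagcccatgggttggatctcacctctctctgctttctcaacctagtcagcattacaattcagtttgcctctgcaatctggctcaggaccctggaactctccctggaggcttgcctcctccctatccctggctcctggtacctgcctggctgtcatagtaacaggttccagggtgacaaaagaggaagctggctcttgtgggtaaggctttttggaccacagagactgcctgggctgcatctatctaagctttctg
TAATGA was found 243 bases before the start in Stoml3, 119 before it in Umodl1 and 105 before it in the second window of Slc17a6, so in 3 of 6 windows, against 9.78% of 32851 windows of the same length. TAATTA was found in 1 of 6, the same window of Slc17a6, 81 bases before the start, and in 5.29% of all. The Ebf motif was in 0 of 6 windows and in 0.904% of all. A match is a description of these letters in these windows.

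Distance from the top of the range was measured first, as the distance from the brightest probe set of the same array. Signals are log2 values, so 1 unit is a doubling of brightness, and brightness of different probe sets is no measure of which transcript is more abundant. On each array, 22 to 47 of the 22206 probe sets lay within 1 unit of the brightest. Stoml3 was at the maximum, within 0.0001, on 13 of 20 arrays and never more than 0.0235 below it. Omp lay 0.0936 to 0.610 below it, and ranked between 4 and 35 among all probe sets. Whether the highest value of an array is a limit of its range was not tested. Umodl1 came next, 1.15 to 4.00 units below the brightest, followed by Rtp1 at 1.34 to 3.76, Slc17a6 at 2.94 to 8.18, Rtp2 at 3.03 to 8.51 and Reep1 at 4.42 to 9.19. The lowest signal of any of the 7 on any array was 10.63, for Reep1, while the medians of the background control probe sets were 5.14 to 6.34, so every gene was far above background on all 20 arrays.

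**Figure D1:**
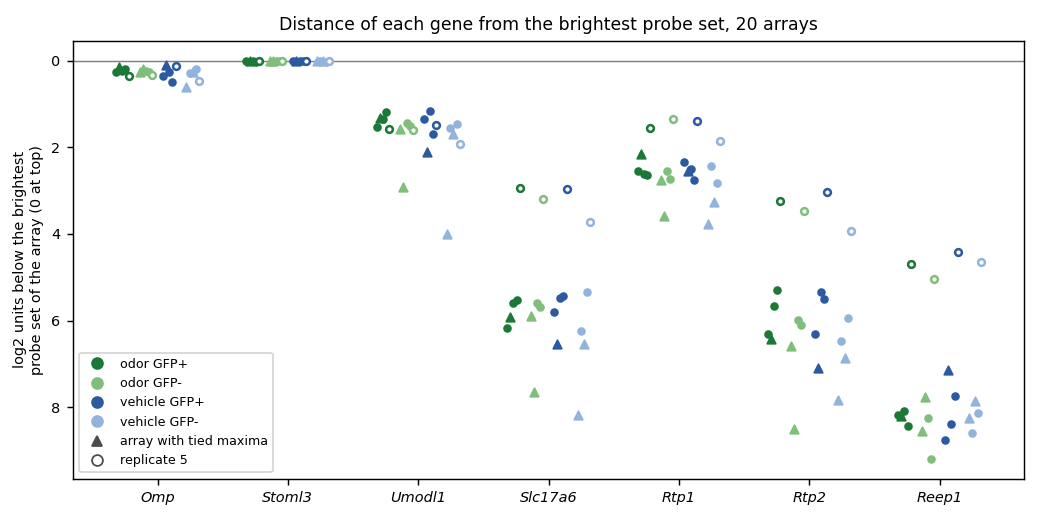
Distance of each of the 7 genes from the brightest probe set of its array (vertical axis, log2 units below the brightest, 0 at the top), with 1 point per array, coloured by group; triangles are arrays with several probe sets sharing the highest value and open circles those of replicate 5. Stoml3 is at the maximum on 13 of 20 arrays, tied on 5 of them, and otherwise within 0.0235 of it. Omp lies within 0.610 of the maximum, while Rtp2, Slc17a6 and Reep1 lie 2.94 to 9.19 below it and differ most between arrays.

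Some arrays stood apart in ways that reached these genes. On 6 arrays several probe sets shared the highest value exactly, from 5 to 17 of them: odor GFP+ 2 with 5, odor GFP- 1 with 6, odor GFP- 2 with 13, vehicle GFP+ 2 with 17, vehicle GFP- 1 with 16 and vehicle GFP- 3 with 11. Their maxima were 18.93 to 19.64, and the standard deviation (SD) of all signals on them was 2.59 to 3.04. The other 10 arrays of replicates 1 to 4 had 1 probe set at the maximum, maxima of 19.65 to 19.86 and SDs of 3.03 to 3.22. Stoml3 was among the tied probe sets on 5 of the 6 arrays, and no other of the 7 genes was. Replicate 5, with its 4 arrays spread over all groups, had median signals of 7.03 to 7.46 and maxima of 18.49 to 18.65, against medians of 6.06 to 6.39 and maxima of 18.93 to 19.86 in replicates 1 to 4. In the odor and vehicle pools numbered 5 the differences of the 7 genes between fractions were -0.12 to 0.83. Among replicates 1 to 4, odor GFP- 2 (mean correlation with its own group 0.951), vehicle GFP+ 2 (0.946) and vehicle GFP- 1 (0.895) were the 3 arrays least like their group, and all had tied maxima. The arrays of replicate 5 were at 0.941 to 0.965.

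The marker genes at the top of the range were described next. Omp read 19.55, 19.50, 19.60, 19.65 and 18.29 in GFP+ cells of odor pools 1 to 5, against 19.38, 19.24, 19.57, 19.57 and 18.24 in the GFP- cells of these pools. In vehicle pools it read 19.52, 19.22, 19.60, 19.17 and 18.36 in GFP+ cells of vehicle pools 1 to 5, against 18.32, 19.55, 19.20, 19.60 and 18.10 in their GFP- cells. The 4 arrays of replicate 5 and vehicle GFP- 1 were low, the rest lay between 19.17 and 19.65, and the GFP+ and GFP- values overlapped in both conditions. The difference GFP+ minus GFP- was 0.12 log2 units in odor pools (standard error, SE, 0.231, adjusted p = 0.901 by limma) and 0.22 in vehicle pools (SE 0.231, adjusted p = 0.717). It was positive in 5 of 5 odor pools and 3 of 5 vehicle pools. Without the 5 pools that held an array with tied maxima the vehicle estimate was -0.08, and it was -0.02 without vehicle replicate 1 alone and 0.38 without vehicle replicate 4 alone.

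Stoml3 read 19.82, 19.64, 19.85, 19.83 and 18.65 in GFP+ cells of odor pools 1 to 5, against 19.63, 19.44, 19.80, 19.82 and 18.57 in the GFP- cells of these pools. In vehicle pools it read 19.84, 19.32, 19.86, 19.65 and 18.49 in GFP+ cells of vehicle pools 1 to 5, against 18.92, 19.83, 19.47, 19.75 and 18.57 in their GFP- cells. Apart from replicate 5, every value under 19.65 was on an array with tied maxima, and the groups overlapped. The difference was 0.10 in odor pools (SE 0.213, adjusted p = 0.908 by limma, positive in 5 of 5) and 0.12 in vehicle pools (SE 0.213, adjusted p = 0.853, positive in 2 of 5). In vehicle pool 1 Stoml3 differed by 0.92 while the maxima of the 2 arrays differed by 0.93, and in vehicle pool 2 both differed by -0.51 and -0.52. How far the signal of Stoml3 follows its transcript level at the top of the range was not tested, and the intervals of Stoml3 (-0.36 to 0.57 in odor pools and -0.34 to 0.58 in vehicle pools) are those of the signal. Without vehicle replicate 1 the vehicle estimate was -0.08, and without vehicle replicate 2 it was 0.28.

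Among the receptor chaperones, Rtp2 had the largest estimate over all pools. Its signals were 13.51, 13.20, 14.19, 14.55 and 15.41 in GFP+ cells of odor pools 1 to 5, against 13.03, 10.93, 13.81, 13.72 and 15.09 in the GFP- cells of these pools. They were 13.56, 12.21, 14.51, 14.14 and 15.46 in GFP+ cells of vehicle pools 1 to 5, against 11.11, 13.36, 12.60, 13.84 and 14.63 in their GFP- cells. Odor GFP- 2, vehicle GFP- 1 and vehicle GFP+ 2 were the lowest 3, all with tied maxima, replicate 5 was high in every group, and the groups overlapped. The difference GFP+ minus GFP- was 0.48, 2.27, 0.37, 0.83 and 0.32 in odor pools 1 to 5, and 2.45, -1.15, 1.91, 0.30 and 0.83 in vehicle pools 1 to 5, so it was positive in 9 of 10 pools. By limma the estimate was 0.85 in odor pools (SE 0.437, adjusted p = 0.382) and 0.87 in vehicle pools (SE 0.437, adjusted p = 0.332). Without odor replicate 2 the odor estimate was 0.50, and the vehicle estimate was 0.47 without vehicle replicate 1 and 1.37 without vehicle replicate 2.

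Rtp1 signals were 17.27, 17.48, 17.24, 17.21 and 17.11 in GFP+ cells of odor pools 1 to 5, against 16.88, 15.86, 17.25, 17.09 and 17.23 in the GFP- cells of these pools. In vehicle pools they were 17.52, 16.77, 17.36, 16.91 and 17.11 in GFP+ cells of vehicle pools 1 to 5, against 15.17, 17.41, 16.20, 16.96 and 16.72 in their GFP- cells. The GFP+ values of odor pools lay within 0.4 units of each other, SD 0.136, while odor GFP- 2 and vehicle GFP- 1 were low, and the groups overlapped. The difference was 0.40 in odor pools (SE 0.374, adjusted p = 0.737 by limma) and 0.64 in vehicle pools (SE 0.374, adjusted p = 0.436), positive in 6 of 10 pools. Without odor replicate 2 the odor estimate was 0.09, and the vehicle estimate was 0.21 without vehicle replicate 1 and 0.96 without vehicle replicate 2.

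Reep1 signals were 11.63, 11.43, 11.77, 11.42 and 13.96 in GFP+ cells of odor pools 1 to 5, against 11.08, 11.68, 11.56, 10.63 and 13.54 in the GFP- cells of these pools. In vehicle pools they were 11.10, 12.17, 11.48, 11.92 and 14.07 in GFP+ cells of vehicle pools 1 to 5, against 10.69, 11.23, 11.62, 11.65 and 13.91 in their GFP- cells. All values of replicates 1 to 4 lay between 10.63 and 12.17, those of replicate 5 lay between 13.54 and 14.07, and the groups overlapped. The difference was 0.34 in odor pools (SE 0.214, adjusted p = 0.517 by limma) and 0.33 in vehicle pools (SE 0.214, adjusted p = 0.501), positive in 8 of 10 pools. The vehicle estimate was 0.18 without vehicle replicate 2. Reep1 was the only one of the 7 that was higher in GFP+ cells of vehicle pool 2 (0.94) and, of the 7, the one lower in GFP+ cells of odor pool 2 (-0.25).

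The glutamate transporter gene Slc17a6 read 13.65, 13.72, 14.26, 14.31 and 15.71 in GFP+ cells of odor pools 1 to 5, against 13.73, 11.78, 14.21, 14.14 and 15.38 in the GFP- cells of these pools. In vehicle pools it read 14.06, 12.77, 14.38, 14.21 and 15.52 in GFP+ cells of vehicle pools 1 to 5, against 10.76, 13.59, 12.93, 14.44 and 14.84 in their GFP- cells. Odor GFP- 2 and vehicle GFP- 1 were over 1.9 units below the other values of their groups, and the groups overlapped. The difference was 0.48 in odor pools (SE 0.478, adjusted p = 0.754 by limma) and 0.88 in vehicle pools (SE 0.478, adjusted p = 0.389), positive in 7 of 10 pools. The odor estimate was 0.12 without odor replicate 2 and the vehicle estimate 0.27 without vehicle replicate 1.

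Umodl1 read 18.28, 18.32, 18.51, 18.67 and 17.06 in GFP+ cells of odor pools 1 to 5, against 18.06, 16.51, 18.37, 18.32 and 16.97 in the GFP- cells of these pools. In vehicle pools it read 18.52, 17.20, 18.71, 17.96 and 17.02 in GFP+ cells of vehicle pools 1 to 5, against 14.93, 18.29, 17.78, 18.31 and 16.64 in their GFP- cells. Vehicle GFP- 1 was the lowest array, and the groups overlapped. The difference was 0.52 in odor pools (SE 0.506, adjusted p = 0.747 by limma, positive in 5 of 5) and 0.69 in vehicle pools (SE 0.506, adjusted p = 0.569, positive in 3 of 5). Without odor replicate 2 the odor estimate was 0.20. The vehicle estimate was -0.04 without vehicle replicate 1, whose difference was 3.59, and 1.14 without vehicle replicate 2.

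**Figure D2:**
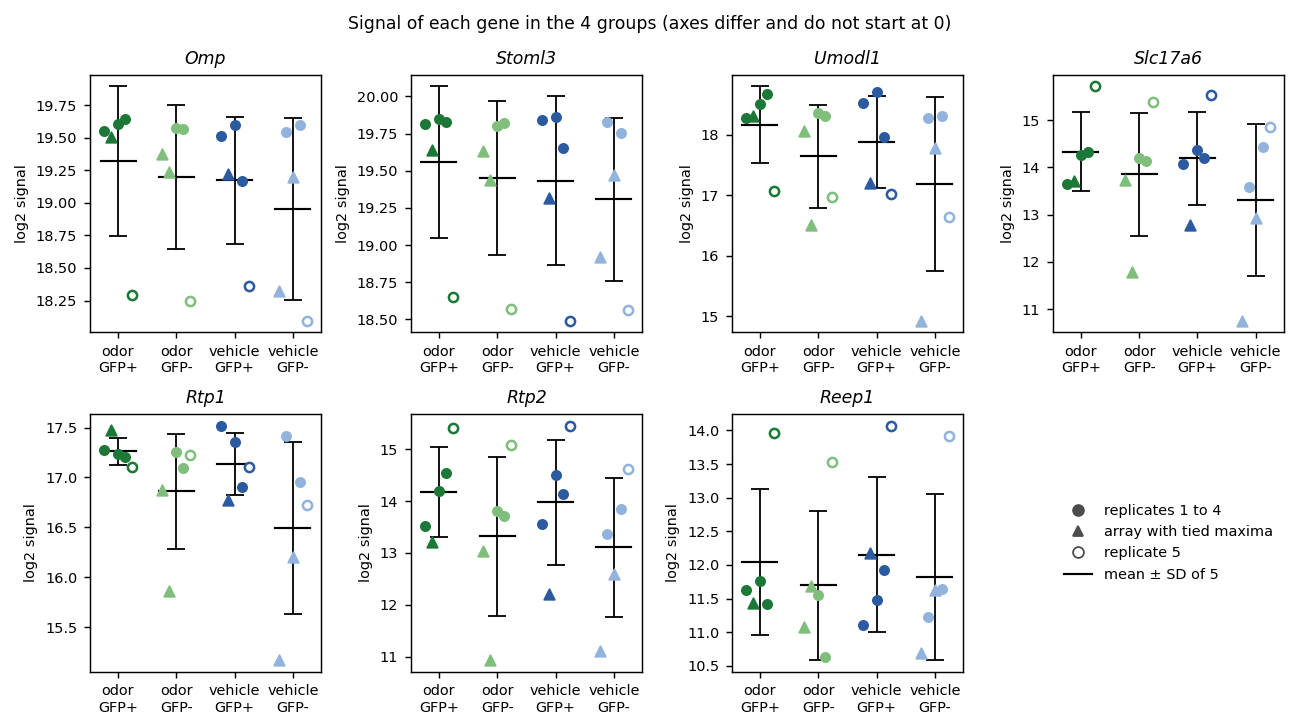
Log2 signal (vertical axis, a separate range per gene) of each gene in odor GFP+, odor GFP-, vehicle GFP+ and vehicle GFP- cells, 1 point per array, with bars for the mean ± SD of 5. Within each gene all 4 groups overlap, open circles (replicate 5) lie low for Omp and Stoml3 and high for Reep1, and triangles (arrays with tied maxima) hold the lowest values of Rtp1, Rtp2, Slc17a6 and Umodl1.

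Tested over all probe sets with limma, 0 of the 7 genes passed the threshold (adjusted p under 0.05) in odor pools, where 2.07% of all probe sets were called higher in GFP+ cells and 5.82% lower. In vehicle pools it was 0 of 7, against 2.26% called higher and 6.86% called lower. At an unadjusted p under 0.05 the count was 0 of 7 in both, where 6.68% of all probe sets in odor pools and 7.49% in vehicle pools were higher. The median estimate of the 7 was 0.40 in odor pools and 0.64 in vehicle pools, while the median of all probe sets was 0.08 in odor pools and 0.09 in vehicle pools. A positive estimate was found for 60.8% of all probe sets in odor pools and 60.5% in vehicle pools. In the mean over both conditions, a comparison added after seeing the data, 0 of 7 passed, against 4.61% of all probe sets called higher and 9.39% lower, and 2 of 7 had an unadjusted p under 0.05, against 12.7% of all probe sets on the higher side. Those 2 were Rtp2, at 0.86 (SE 0.309, adjusted p = 0.0898 by limma), and Reep1, at 0.34 (SE 0.151, adjusted p = 0.184), which passed with centring on medians (0.56, adjusted p = 0.0172). With centring 4307 of 22206 probe sets were called higher in that mean, and with array weights 2156, against 1023 in the main fit. Rtp2 passed in that mean with quantile normalization (0.76, adjusted p = 0.0296 by limma) and with array weights (0.76, adjusted p = 0.0199). Centring on medians (1.09, adjusted p = 0.0255) or leaving out vehicle replicate 2 (1.11, adjusted p = 0.00827) also let it pass. It passed too without the 3 pools of the arrays least like their group (0.76, adjusted p = 0.0163). Without the pools with tied maxima it was 0.54 and did not pass (adjusted p = 0.0855). With the dimmest 25% left out (0.86, adjusted p = 0.0786) or an intensity trend (0.86, adjusted p = 0.0872) Rtp2 did not pass. Nor did it with a term for replicate 5 (0.86, adjusted p = 0.112) or without both pools numbered 5 (0.93, adjusted p = 0.193). Among single pools left out, only vehicle replicate 2 let Rtp2 pass. That pool held the only negative difference of Rtp2 (-1.15). In vehicle pools alone Rtp2 passed without vehicle replicate 2 (1.37, adjusted p = 0.0367 by limma) and without those 3 pools (1.01, adjusted p = 0.0448), while without vehicle replicate 1 it did not pass there (0.47) or in the mean over both conditions (0.66). Against probe sets within 0.5 units of the same mean signal, the vehicle estimate of Rtp2 was above 93.7% of 430 and that of Slc17a6 above 93.7% of 349. It was above 97.4% of 39 for Umodl1, 88.7% of 53 for Rtp1 and 59.4% of 949 for Reep1. For Omp it was above 87% of 23 and for Stoml3 above 76.5% of 17. The odor estimate was above 95.1% of the same probe sets for Rtp2, 77.4% for Slc17a6, 84.6% for Umodl1 and 67.9% for Rtp1. For Reep1 it was above 64.5%, for Omp 78.3% and for Stoml3 64.7%. These shares include the pools with tied arrays. Without vehicle replicate 1 the vehicle estimates were 0.47 for Rtp2, 0.27 for Slc17a6, 0.21 for Rtp1 and -0.04 for Umodl1. In bulk samples such as these, fewer cells of a type and less RNA per cell cannot be told apart.

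**Figure D3:**
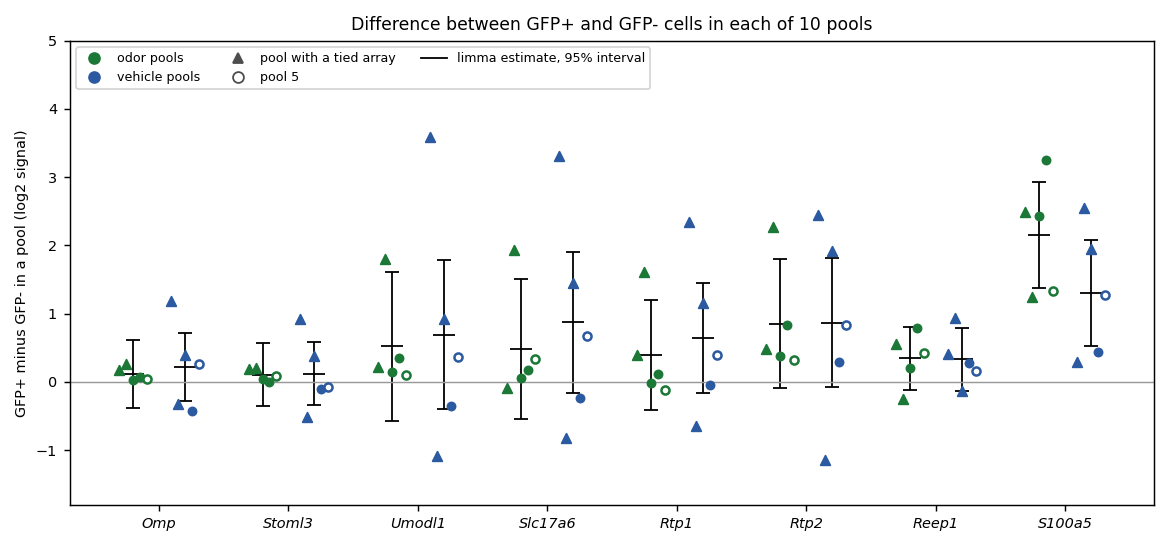
Difference GFP+ minus GFP- (vertical axis, log2 signal) of each gene and of S100a5 in each of 10 pools, odor pools left of vehicle pools, with the limma estimate and its 95% interval. Intervals of all 7 genes include 0, the highest difference of each lies in a pool with a tied array (triangles), and the lowest does too for all but Omp, which is lowest in vehicle pool 4, and S100a5 is positive in 10 of 10 pools.

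Pool by pool, most of the 7 genes moved the same way in the pools with unequal arrays. Their median difference was 2.35 in vehicle pool 1, where the SD of all signals was 3.11 on the GFP+ array and 2.59 on the GFP- array. It was 1.61 in odor pool 2 (SD 3.04 on the GFP+ and 2.83 on the GFP- array) and 0.92 in vehicle pool 3 (SD 3.18 on the GFP+ and 3.01 on the GFP- array). In vehicle pool 2 the order of the arrays was turned, with an SD of 2.82 on the GFP+ array and 3.15 on the GFP- array, and the median difference was -0.64, with 1 of 7 genes positive. In the other 6 pools the median lay between -0.10 and 0.37. Over all probe sets the median difference of a pool stayed between -0.06 and 0.11. S100a5, the gene of the reporter, was 0.29 in vehicle pool 1 and 2.55 in vehicle pool 2. Without the pools with tied maxima the odor estimates were -0.0073 for Rtp1 and positive for the other 6 genes, and in vehicle pools Omp was at -0.08 and Stoml3 at -0.09. The part of array spread in the differences was not tested.

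**Figure D4:**
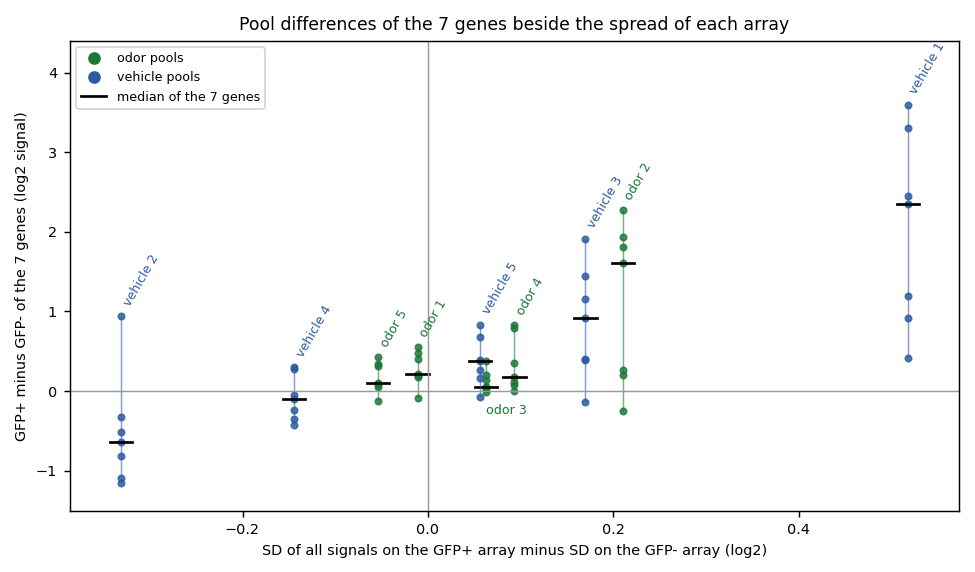
Difference GFP+ minus GFP- of the 7 genes (vertical axis, log2 signal; points, with a bar at their median) against the SD of all signals on the GFP+ array minus that on the GFP- array of the same pool (horizontal axis, log2 units). Vehicle pool 2, at the left, has a median of -0.64 and vehicle pool 1, at the right, one of 2.35.

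Markers of other cells differed between the fractions beside these genes. All 14 measured white blood cell markers fell in GFP+ cells in both conditions. Their mean signal in replicates 1 to 4 was 5.75 to 6.02 in GFP+ and 11.35 to 11.77 in GFP- cells of odor pools, while in vehicle pools it was 5.69 to 5.91 in GFP+ cells, against 12.08 to 12.37 in GFP- cells. Summed on the linear scale they reached 10.14 to 10.34 log2 units in GFP+ and 19.72 to 20.01 in GFP- cells of odor pools, while in vehicle pools they reached 10.06 to 10.50 in GFP+ cells, against 19.87 to 20.40 in GFP- cells. Of 8 microvillar cell markers 6 fell in both conditions, while 2 of 9 sustentacular cell markers fell in vehicle pools and 0 of 9 in odor pools. Of 8 Bowman gland markers 3 fell in both conditions, as did 1 of 5 for guanylyl cyclase D neurons and 1 of 7 for endothelium and stroma. For horizontal basal cells and ensheathing glia 1 of 5 fell in vehicle pools and 0 of 5 in odor pools. Of all probe sets 5.82% were called lower in odor pools and 6.86% in vehicle pools. The 4 ciliated respiratory cell markers did not pass the test in either. Vehicle GFP- 1, the array on which Omp, Rtp1, Slc17a6, Umodl1 and Stoml3 were lowest among replicates 1 to 4, had a white blood cell mean of 12.30, against 12.08 to 12.37 on the GFP- arrays of vehicle pools 2 to 4. Its mean over 8 mature neuron markers, Omp among them, was 16.28, against 17.04 to 17.41 on those 3 arrays. The part of these other cells in the results was not tested.

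Whether the odor changed the difference between fractions was tested in the same fit. The change in GFP+ minus GFP-, odor over vehicle, ran from -0.39 (Slc17a6, 95% interval -1.85 to 1.07) to 0.01 (Reep1, -0.64 to 0.67). By limma 0 of 7 passed, against 0% of all probe sets, and 0 of 7 had an unadjusted p under 0.05, against 1.21%. Within GFP+ cells, odor minus vehicle ran from -0.11 for Reep1 (95% interval -1.45 to 1.23) to 0.29 for Umodl1 (-0.61 to 1.19). There 0 of 7 passed by limma, against 0% of all probe sets, and 0 of 7 had an unadjusted p under 0.05, against 0.275%. Within GFP- cells it ran from -0.12 for Reep1 (-1.54 to 1.30) to 0.54 for Slc17a6 (-1.20 to 2.28), with 0 of 7 passing against 0% of all probe sets, and 0 of 7 against 0.135% at an unadjusted p under 0.05. All adjusted p-values of the 7 in these comparisons rounded to 1.00. Comparisons within a fraction did not pair arrays by replicate number, so the shifted signals of replicate 5 are part of their spread. Intervals this wide also include changes of over 1.5-fold in either direction for all 7 genes, except for Rtp1 within GFP+ cells (-0.37 to 0.62).

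The order of the 4 group means was odor GFP+, vehicle GFP+, odor GFP-, vehicle GFP- for Rtp1 (17.26, 17.13, 16.86 and 16.49), Rtp2 (14.17, 13.98, 13.32 and 13.11), Slc17a6 (14.33, 14.19, 13.85 and 13.31) and Umodl1 (18.17, 17.88, 17.64 and 17.19). For Omp it was odor GFP+, odor GFP-, vehicle GFP+, vehicle GFP- (19.32, 19.20, 19.17 and 18.95), as it was for Stoml3 (19.56, 19.45, 19.43 and 19.31). For Reep1 it was vehicle GFP+, odor GFP+, vehicle GFP-, odor GFP- (12.15, 12.04, 11.82 and 11.70). In every case neighbours in the order differed by less than the SD within either group.

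On the arrays of replicate 5 these genes departed from the other arrays in both directions. Averaged over its 4 arrays, replicate 5 minus the other 16 was 2.43 for Reep1, 1.88 for Rtp2, 1.81 for Slc17a6 and 0.13 for Rtp1. It was -0.998 for Umodl1, -1.08 for Stoml3 and -1.14 for Omp. Probe sets of like signal were offset in a similar order, with medians of 1.55 near Reep1, 0.99 near Rtp2, 0.94 near Slc17a6, -0.35 near Rtp1, -0.91 near Umodl1, -1.38 near Stoml3 and -1.34 near Omp. All of the genes but Umodl1 lay above the upper quartile of their like probe sets, which was 1.89 for Reep1, 1.33 for Rtp2, 1.28 for Slc17a6, -0.07 for Rtp1 and -1.28 for both Stoml3 and Omp.

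**Figure D5:**
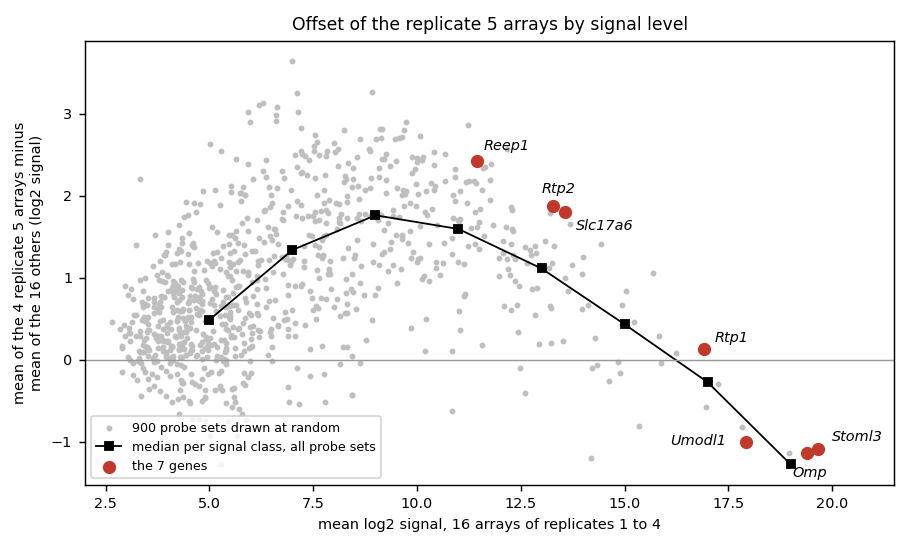
Mean of the 4 replicate 5 arrays minus mean of the other 16 (vertical axis, log2 signal) against the mean signal of the 16 (horizontal axis), for the 7 genes in red, 900 probe sets drawn at random in grey, and the median per signal class in black. The offset is positive in the middle of the range and negative at its top, and the genes spread from 2.43 for Reep1 to -1.14 for Omp.

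Across the 16 arrays of replicates 1 to 4, each less its median, the 6 genes other than Reep1 varied together, with Pearson's r from 0.82 to 0.96 and Spearman's rho from 0.69 to 0.98 over their 15 pairs. Pairs with Reep1 had r from 0.29 to 0.40 and rho from 0.07 to 0.26. Leaving out the 2 arrays farthest from the median gave r from 0.61 to 0.94 for the 15 pairs and from -0.19 to 0.06 for those with Reep1. On the 10 arrays without tied maxima r ran from 0.02 (Rtp1 and Slc17a6) to 0.95 (Omp and Umodl1), so the common variation of some pairs rested on the arrays with tied maxima, while Rtp2 and Slc17a6 were at 0.85. These are descriptions over arrays that share mice, range and groups. The genes most like each of the 7 over the 16 arrays were, for Omp, the pleckstrin homology gene Plekhb1 (r = 0.980), Stom and the G protein subunit gene Gnal; for Stoml3, Gfy (0.995), which encodes a Golgi protein of olfactory neurons, with Prxl2a and Sgip1. For Rtp1 they were Spock1 (0.971), Id4 and Msi1, and for Rtp2 Rangap1 (0.975), Ccdc92 and Ccdc91. For Slc17a6 they were the semaphorin gene Sema4d (0.984), Gpt2 and Tm9sf1, for Umodl1 the tetraspanin gene Cd81 (0.988), Ociad1 and Zcchc17, and for Reep1 Fam118b (0.872), Obsl1 and Zfp40. An r of at least 0.8 was reached by 11.1% to 15.9% of 19498 genes with each of the 6, and by 0.0872% with Reep1. Gfy was itself the brightest probe set on 4 arrays, with signals of 18.93 to 19.86. Stom (18.92 to 19.73), Gnal (18.58 to 19.54) and Plekhb1 (18.04 to 19.66) also lay near the top of the range, while Prxl2a (10.45 to 16.17) and Sgip1 (7.77 to 12.26) did not. The part of array range in these correlations was not tested.

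Genes listed with the 7 by role are read against the shares of all probe sets, 2.07% higher and 5.82% lower in odor pools and 2.26% higher and 6.86% lower in vehicle pools. Of 15 measured genes of receptor export 2 fell in GFP+ cells of vehicle pools and 0 rose, with a list median of 0.03, and 2 fell in odor pools. They were Reep5, which shapes endoplasmic reticulum tubules, at -2.66 in odor pools (SE 0.324, adjusted p = 0.000105 by limma) and -2.77 in vehicle pools (SE 0.324, adjusted p = 6.5e-05), and Reep4, which clears the reticulum from mitotic chromosomes, at -1.35 in odor pools and -1.67 in vehicle pools. Reep5 averaged 5.31 in GFP+ and 7.96 in GFP- cells of odor pools, and 5.18 in GFP+ against 7.95 in GFP- cells of the vehicle pools, and its GFP+ signals lay in the range of the background controls. Ric8b, an exchange factor for the olfactory G protein, was at 0.29 in odor pools and 0.59 in vehicle pools, Reep3 was at -0.17 in odor pools and -0.55 in vehicle pools, and neither passed. Reep1 therefore stood beside 2 genes of its family that fell. The difference between them was not tested.

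None of 9 measured ciliary transport genes passed in vehicle pools, where all 9 were positive with a median of 0.64, and 1 rose in odor pools, Mkks, a chaperonin-like protein of the Bardet-Biedl complexes, at 0.99 (SE 0.251, adjusted p = 0.026 by limma). Bbs4 was at 0.82 in odor pools and 0.88 in vehicle pools, and Tulp3, Cep290 and Kif3a were at 0.83, 0.81 and 0.75 in vehicle pools. None of 3 stomatin family genes passed in either condition, and Stom reached the maximum of an array. Of 15 genes of glutamate and synaptic release 0 rose in odor pools and 1 rose in vehicle pools, the vesicle protein gene Syt4 at 1.34 (SE 0.304, adjusted p = 0.0108 by limma), positive in 10 of 10 pools. Syn2 was at 1.37, Snap25 at 1.15 and Syn1 at 0.93 in vehicle pools without passing. Slc17a7 and Slc17a8, which encode the other vesicular glutamate transporters, lay in the range of the background controls on 20 of 20 arrays, where Slc17a6 was at 10.76 or more.

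Of 14 olfactory transduction genes none passed in either condition and all 14 were positive in both, with medians of 0.53 in odor pools and 0.52 in vehicle pools. Pde1c, a phosphodiesterase of the cilia, was at 0.95 in odor pools and 0.98 in vehicle pools, and the chloride channel gene Ano2 was at 0.62 in odor pools and 0.83 in vehicle pools. Slc24a4, a calcium exchanger of the cilia, was at 0.67 in odor pools and 0.92 in vehicle pools, and Pde4a was at 0.64 in odor pools and 0.65 in vehicle pools. Of 14 immature neuron genes 4 fell in each condition, with list medians of -0.12 in odor pools and -0.07 in vehicle pools and, of all probe sets, 5.82% lower in odor pools and 6.86% in vehicle pools. They were, in vehicle pools Gng8 (-4.37), Dpysl3 (-3.32), Stmn1 (-2.55) and Gap43 (-2.48). Of 9 progenitor genes 5 fell in odor pools (list median -1.11) and 4 in vehicle pools (median -0.87), among them the proliferation marker Mki67 at -5.14 in odor pools and -5.33 in vehicle pools. Of 8 activity-associated genes 3 rose in odor pools (list median 1.29), against 2.07% of all probe sets, and 4 in vehicle pools (median 1.43), against 2.26%, among them Pcp4l1 at 1.79 in odor pools and 2.12 in vehicle pools and Lrrc3b at 1.92 in odor pools and 1.94 in vehicle pools. S100a5 itself, 1 of the 8 and counted among those that rose, was at 2.15 in odor pools (adjusted p = 0.00131 by limma) and 1.30 in vehicle pools (adjusted p = 0.0368). Cells were sorted by the reporter of this gene, so its rise is no independent result. The list was chosen with earlier results of these data known, so its counts are a description.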

How the data were processed

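Per the labels' protocols, biotinylated cRNA from 50 to 100 ng of RNA was hybridised to Clariom S arrays. The authors processed the arrays with Affymetrix Expression Console, per the submitters' processing notes. Neither its version nor how it corrected background, normalized and summarized probes is stated there. What was deposited is 1 log2 signal for each probe set and array, as the range of values shows, and these signals were tested unchanged. Of 28846 rows, 6640 control rows were left out and 22206 gene probe sets were tested with no filter.

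The members and gene lists were chosen with earlier results of these data known. Tests used limma 3.58.1 in R 4.3.3 (lmFit, eBayes), two-sided, with Benjamini-Hochberg adjustment over all 22206 probe sets at 0.05; the code was tested on simulated data. Differences GFP+ minus GFP- within the 10 pools entered 1 fit. Odor and vehicle were compared within a fraction on its 10 arrays without a block. Same-numbered odor and vehicle arrays are not said to share a batch. Their deviations from the group means correlated at 0.25, 0.52, 0.35, 0.16 and 0.86 in GFP+ cells, all above the 0.1 set as the limit, which was taken as pairing there, although over replicates 1 to 4 alone replicate 1 was at -0.049, so the limit was met only with replicate 5 included, and at 0.14, -0.38, 0.28, 0.20 and 0.84 in GFP- cells, which was not. Pools are separate mice, so p-values measure the spread between pools.

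Named genes were the 7, S100a5, up to 4 per list by size of change in vehicle pools, and the 3 genes of highest r per member. Mkks, Slc17a7 and Slc17a8 were named after their values were seen. Maxima within 0.0001 counted as tied. A probe set's gene came from the platform annotation. Promoter windows came from RefSeq, GRCm38.p6. Alternatives were quantile normalization, median centring, leaving out the dimmest 25%, an intensity trend, array weights, a term for replicate 5, leaving out pools, the replicate block or its absence, and signals relative to the brightest probe set.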

Additional observations from a re-analysis of the deposited data

Results flagged for a closer look

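In 42 groups of 5 values, where a chance gap is flagged in about 1 in 20, 9 held a value far from the rest, and 5 of these were arrays of replicate 5. Omp was low at 18.29 in odor GFP+ replicate 5 and at 18.24 in odor GFP- replicate 5. Stoml3 was low at 18.65 and Umodl1 at 17.06 in odor GFP+ replicate 5, while Reep1 was high there at 13.96. Rtp1 was low at 15.86 in odor GFP- replicate 2, an array on which 13 probe sets shared the maximum. In the pool of that array, odor pool 2, the difference GFP+ minus GFP- was far above the other 4 odor pools for Rtp2 at 2.27, for Slc17a6 at 1.93 and for Umodl1 at 1.80. The part of array range in these values was not tested.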

How the results depend on the processing

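None of the 7 genes passed in the comparison of odor with vehicle in any of the 12 alternatives or with any of the 10 pools left out, and none passed lower in GFP+ cells. The replicate block changed no call. A member was counted higher in GFP+ cells over all pools with quantile normalization (1, Rtp2), centring (2, Rtp2 and Reep1) and array weights (1, Rtp2). The same held without the 3 pools of the arrays least like their group among replicates 1 to 4 (1, Rtp2), and in vehicle pools without those 3 (1, Rtp2). Of 22206 probe sets, 4307 were higher over all pools with centring and 2156 with array weights, against 1023 in the main fit. With 1 pool left out the member count was 0 to 1 in vehicle pools and over all pools, 1 without vehicle replicate 2. Without that pool 786 probe sets were higher in vehicle pools and 1924 over all. The last 2 alternatives, leaving out the 3 pools or the pools with tied maxima, and the mean over all pools were chosen after seeing the data.

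Probe sets higher in GFP+ cells numbered 460 in odor pools, 501 in vehicle pools and 1023 over all. With centring they were 807 in odor pools, 1169 in vehicle pools and 4307 over all. With array weights 1392 were higher and 1974 lower in odor pools, 2156 were higher over all pools, and 1 was higher with odor in GFP+ cells. Without both pools numbered 5, 608 were higher over all pools. With no replicate block, that is with fractions unpaired, 206 were higher and 844 lower in odor pools, 219 higher and 979 lower in vehicle pools, and 371 higher over all. With 1 pool left out the counts were 354 to 786 in vehicle pools and 709 to 1924 over all, both highest without vehicle replicate 2.

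Estimates that changed sign, none of which passed in either case, were as follows. For the sort, odor minus vehicle, Reep1 was -0.017 with centring and -0.049 without both pools numbered 5, Rtp2 0.11 without those, Stoml3 0.070 and Umodl1 0.035 with array weights, Omp 0.0036 and Stoml3 0.012 without the 3 pools, and Omp 0.13, Stoml3 0.14 and Umodl1 0.18 without pools with tied maxima. For odor minus vehicle in GFP+ cells, array weights gave Rtp2 -0.045, Reep1 0.026 and Slc17a6 -0.11, the brightest probe set as reference gave Stoml3 -0.00090, leaving out the 3 pools gave Rtp2 -0.29 and Slc17a6 -0.22, and leaving out tied maxima gave Rtp2 -0.085 and Slc17a6 -0.10. In GFP- cells, array weights gave Rtp1 -0.074 and Umodl1 -0.00088, and leaving out tied maxima gave Rtp2 -0.027 and Slc17a6 -0.067. For the sort, Stoml3 in odor pools was -0.0038 relative to the brightest probe set. Values of Stoml3 relative to that probe set are near 0 by construction, since Stoml3 is at the maximum on 13 of 20 arrays. The maximum is shared with other probe sets on 5 of them, and Stoml3 lies within 0.0235 of it on the remaining arrays. Leaving out tied maxima gave Rtp1 -0.0073 in odor pools, Omp -0.080 and Stoml3 -0.089 in vehicle pools, and Omp -0.014 and Stoml3 -0.021 over all.

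With 1 pool left out, sign changes occurred within these ranges. The sort in vehicle pools ranged over -0.021 to 0.38 for Omp, -0.076 to 0.28 for Stoml3 and -0.035 to 1.14 for Umodl1, each below 0 without vehicle replicate 1. Its change with odor ranged over -0.26 to 0.14 (Omp), -0.56 to 0.19 (Rtp1), -0.52 to 0.38 (Rtp2), -0.10 to 0.17 (Reep1), -0.18 to 0.18 (Stoml3), -0.82 to 0.21 (Slc17a6) and -0.61 to 0.56 (Umodl1). Odor minus vehicle ranged in GFP+ cells over -0.057 to 0.40 (Omp), -0.25 to 0.57 (Rtp2), -0.59 to 0.37 (Reep1), -0.11 to 0.35 (Stoml3) and -0.21 to 0.48 (Slc17a6), and in GFP- cells over -0.29 to 0.81 (Rtp2), -0.58 to 0.40 (Reep1), -0.043 to 0.36 (Stoml3), -0.10 to 1.05 (Slc17a6) and -0.11 to 0.74 (Umodl1). The cause was not tested. Background did not bound any value, since the lowest signal of the 7 was 10.63 and the highest median of the background controls 6.34.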
